A study of Mus musculus with 10 samples.

Results

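The alpha and beta crystallins are the 8 genes Cryaa, Cryab, Cryba1, Cryba2, Cryba4, Crybb1, Crybb2 and Crybb3, chosen by symbol from the 30063 genes that the array annotation names by 1 symbol. Each has 1 transcript cluster annotated to it alone, and that cluster stands for the gene. Whole retina of C57BL/6JJmsSlc mice was measured on 10 Affymetrix whole-transcript arrays, 2 in each of 5 groups. Untreated retina was taken at postnatal day 7 and at day 17. The other 3 groups are day 17 retina with oxygen-induced retinopathy (OIR), from pups kept in 75% oxygen for 5 days from day 7 and then in air: 1 without an injection, 1 that received phosphate-buffered saline (PBS) in the vitreous, and 1 that received ISOX DUAL, a small molecule known as a bromodomain inhibitor, in the vitreous. Injections were made when the oxygen exposure ended. No group carries a transgene or deletion per the labels, and every group shares the strain. The labels do not say whether an array holds 1 animal or a pool, and the p-values cover only array-to-array spread, which may be technical.

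Crystallins are the water-soluble proteins that fill lens fibre cells and give the lens its refractive power. The alpha crystallins, encoded by Cryaa and Cryab, are small heat shock proteins that hold partly unfolded proteins in solution, and Cryab is also made in glia, muscle and heart. The beta crystallins are structural proteins of the beta-gamma superfamily, built of Greek key folds, with acidic (Cryba) and basic (Crybb) members that pair with each other. Several crystallins are also known to be made at low level in retinal neurons and glia, so a crystallin transcript in retina can come from retinal cells or from lens tissue taken with it. In whole tissue, fewer cells of a type and less RNA per cell cannot be told apart.

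Levels are deposited log2 values, and differences between groups come from limma over all genes, with Benjamini-Hochberg adjusted p-values and a threshold of 0.05. ± gives the standard error (SE) of a difference. The probes were set against the arrays' own negative control probes, whose median was 5.83 to 6.11 and whose 95th percentile was 8.31 to 8.64 on the 10 arrays. Between 8.00% and 9.97% of clusters exceeded that percentile. Rod genes marked the tissue as retina: all 8 measured members exceeded it on 9 arrays, and 6 did on the second day 7 array. Rlbp1, a Müller glia gene, lay between 9.33 and 10.26.

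The sequences just before the transcription starts are shown because 7 of the 8 members were highest on the same array, and 6 of these 7 hold a short motif there. Cryab, the 1 member not highest on that array, has no promoter entry and was not searched. Members with and without that peak therefore cannot be compared for the motif. Large Maf proteins are transcription factors known to drive crystallin genes in lens fibres through sites that hold the half-site TGCTGA. That motif, searched on both strands in the 250 bases before each RefSeq start (build GRCm38.p6), was found in 6 of the 7 members with a promoter entry and in 16.1% of the 32851 promoters in the table. It was chosen with the members known. Capitals mark the match, which reads TCAGCA where it lies on the opposite strand.
Cryaa (chr17:31677681-31677930, plus strand): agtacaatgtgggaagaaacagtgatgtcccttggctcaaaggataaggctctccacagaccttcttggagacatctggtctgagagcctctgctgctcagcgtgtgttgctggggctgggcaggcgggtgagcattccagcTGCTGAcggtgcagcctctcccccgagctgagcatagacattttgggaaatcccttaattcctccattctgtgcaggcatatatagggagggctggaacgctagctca
Cryba1 (chr11:77725294-77725543, minus strand): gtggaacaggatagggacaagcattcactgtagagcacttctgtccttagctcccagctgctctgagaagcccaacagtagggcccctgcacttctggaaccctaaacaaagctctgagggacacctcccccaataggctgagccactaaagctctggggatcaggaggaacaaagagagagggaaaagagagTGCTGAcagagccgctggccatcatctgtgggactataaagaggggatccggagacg
Crybb1 (chr5:112255570-112255819, plus strand): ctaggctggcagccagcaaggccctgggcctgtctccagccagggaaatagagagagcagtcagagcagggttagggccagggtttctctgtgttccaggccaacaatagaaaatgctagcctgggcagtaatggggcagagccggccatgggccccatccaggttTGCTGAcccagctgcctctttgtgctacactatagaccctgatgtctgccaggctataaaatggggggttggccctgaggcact
Cryba4 (chr5:112252519-112252768, minus strand): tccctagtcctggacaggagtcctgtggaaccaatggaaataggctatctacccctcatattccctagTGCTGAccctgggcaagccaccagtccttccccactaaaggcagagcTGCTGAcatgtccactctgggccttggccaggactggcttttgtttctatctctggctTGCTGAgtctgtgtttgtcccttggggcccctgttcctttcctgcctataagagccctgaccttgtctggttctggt
Cryba2 (chr1:74893144-74893393, minus strand): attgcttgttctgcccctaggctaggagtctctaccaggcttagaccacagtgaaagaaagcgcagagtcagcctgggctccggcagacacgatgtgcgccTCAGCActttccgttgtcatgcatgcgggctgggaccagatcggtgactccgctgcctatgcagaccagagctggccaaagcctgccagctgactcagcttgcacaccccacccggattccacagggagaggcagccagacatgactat
Crybb2 (chr5:113070118-113070367, minus strand): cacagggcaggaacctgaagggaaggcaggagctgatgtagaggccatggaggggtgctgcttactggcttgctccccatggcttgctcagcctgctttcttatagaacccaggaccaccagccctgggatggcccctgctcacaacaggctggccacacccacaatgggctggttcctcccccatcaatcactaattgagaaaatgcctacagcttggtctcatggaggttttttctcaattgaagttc
Cryaa, Cryba1 and Crybb1 are printed as the 3 members with the highest values in the inhibitor group relative to uninjected OIR. Cryba4 has 3 matches, the most of any member, and its start lies 3302 bases from that of Crybb1 on the opposite strand. These starts point away from each other. The RefSeq spans of these neighbours nevertheless overlap, so the spans do not both begin at the starts used here. The array has separate clusters for them. In Cryba2 the match is on the opposite strand, as it is in Crybb3, which is not printed. Crybb2 is the member without a match in this window. Among context lists, the motif stood before 4 of 8 gamma crystallin genes and 4 of 9 lens fibre genes that encode no crystallin, and before 2 of 6 rod and 1 of 6 Müller glia genes with an entry. A match describes letters in the reference and was not tested as a site.

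**Figure D1:**
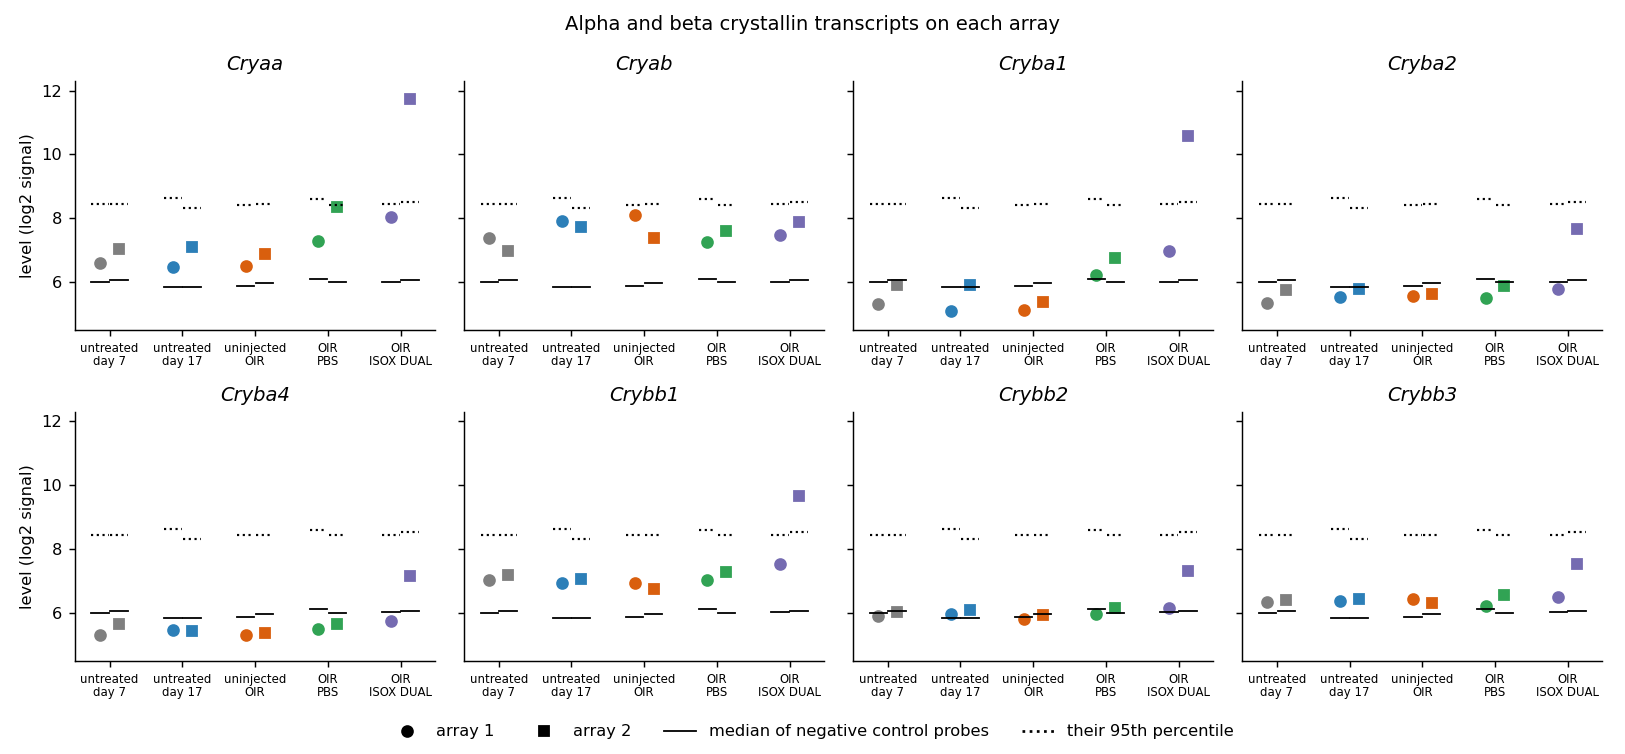
Level (log2 signal) of each member on the 10 arrays, with circles for array 1 and squares for array 2 of a group, a solid tick at the median of that array's negative control probes and a dotted tick at their 95th percentile. Cryaa, Cryba1 and Crybb1 exceed the dotted tick only on the second ISOX DUAL array, and Cryab stays between both ticks on all 10 arrays.

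Without an injection, 7 of the 8 crystallins varied by less than 1 log2. Over the 6 uninjected arrays, from both days and with or without OIR, the level of Crybb3 spanned 6.31 to 6.45 log2, that of Crybb2 5.82 to 6.08, that of Cryba4 5.32 to 5.64, that of Crybb1 6.76 to 7.18 and that of Cryba2 5.34 to 5.77. Cryaa spanned 6.48 to 7.11 and Cryba1 5.11 to 5.92. Cryba2 and Cryba4, both acidic beta crystallin genes, fell short of the negative control median on all 6 arrays, as on 9 of 10 arrays in all, and their levels there cannot be told from background. Cryab alone moved by more than 1 log2, from 6.97 to 8.10.

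Between uninjected OIR and untreated retina of the same day no member passed the test. Of 8 members 0 passed the limma threshold and 0 had an unadjusted p under 0.05, where 0.495% of the 23255 genes tested were called and 6.10% had such an unadjusted p. Both OIR arrays lay above both untreated arrays for 0 members (9.44% of all genes). All 8 differences were slightly negative, with a median of -0.11 log2 against -0.04 over all genes. Cryaa was at 6.48 and 7.11 on the untreated arrays and at 6.52 and 6.87 in OIR (difference -0.10 ± 1.00), so the groups overlapped. That SE holds the spread of the ISOX DUAL arrays, since all groups share 1 estimate. With only the arrays of both groups in the fit it was 0.26. Cryab was at 7.92 and 7.73 untreated and at 8.10 and 7.38 in OIR (difference -0.08 ± 0.27, 95% interval -0.71 to 0.54), again overlapping. The direction was not stable: leaving out 1 array in turn gave -0.41 to 0.22 for Cryaa and -0.44 to 0.27 for Cryab. In the same comparison glial genes did differ: 5 of 9 astrocyte and reactive glia genes rose, among them Gfap (2.39 ± 0.18, adjusted p = 0.00526).

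From day 7 to day 17 of untreated retina, 0 of 8 members passed against 10.6% of all genes, and 1 had an unadjusted p under 0.05 (22.8% of all genes). That member was Cryab. It was at 7.39 and 6.97 on the day 7 arrays and at 7.92 and 7.73 on the day 17 arrays, so the days did not overlap, and 20.7% of genes likewise had both day 17 arrays above both day 7 arrays. Its difference was 0.65 ± 0.27 log2 (1.57-fold, 95% interval 0.03 to 1.27), with an unadjusted limma p of 0.0429 and an adjusted p of 0.198. Among the other 7 members the differences ran from -0.10 to 0.09. Tissue maturation was plain in the same arrays: 7 of 8 rod genes rose, with a median of 1.13 log2, and of 9 Müller glia genes 2 rose (Aqp4 1.31 ± 0.12, adjusted p = 0.000809; Kcnj10 1.07 ± 0.12, adjusted p = 0.00192) and 2 fell.

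The injected arrays are where the crystallins stood out, and they did so unevenly. Cryaa, the alpha crystallin gene expressed mainly in lens, was at 7.30 and 8.34 log2 on the PBS arrays and at 8.05 and 11.75 on the ISOX DUAL arrays. Its 4 injected values all lay above its highest uninjected value of 7.11, and the second ISOX DUAL array was far above the rest. Cryba1, which encodes the acidic beta A3/A1 crystallins, was at 6.22 and 6.76 with PBS and at 6.98 and 10.58 with ISOX DUAL, against 5.92 at most without an injection. It also kept all 4 injected arrays above all uninjected ones. Cryaa and Cryba1 were the 2 of 8 members with that order, which 1.87% of all genes tested had.

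Crybb1, a basic beta crystallin gene of fibre cells, was at 7.04 and 7.27 with PBS and at 7.53 and 9.65 with ISOX DUAL. Both ISOX DUAL values exceeded its other 8, as for Cryba1 and Cryba4, and 1.51% of all genes had this order. Cryba4 was at 5.51 and 5.64 with PBS and at 5.75 and 7.16 with ISOX DUAL. Cryba2 was at 5.50 and 5.87 with PBS and at 5.79 and 7.66 with ISOX DUAL. For both of these genes the second ISOX DUAL array was the single array above the median of its negative control probes.

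Crybb2, a basic beta crystallin gene known from inherited cataract, was at 5.98 and 6.17 with PBS and at 6.15 and 7.31 with ISOX DUAL. Crybb3, its neighbour on the chromosome, was at 6.21 and 6.56 with PBS and at 6.49 and 7.55 with ISOX DUAL. In both genes the first ISOX DUAL array lay between the PBS arrays, and only the second stood apart. Cryab was at 7.27 and 7.61 with PBS and at 7.47 and 7.89 with ISOX DUAL, inside its uninjected range on all 4 arrays.

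Counted by array, the second ISOX DUAL array was the highest of the 10 for 7 of 8 members (3.84% of all genes), with Cryab as the exception. The first ISOX DUAL array lay above all 6 uninjected arrays for the same 7 members (9.26% of all genes). The second PBS array did so for 6 members (8.81%) and the first PBS array for 2, Cryaa and Cryba1 (10.9%). Relative to each gene's mean over the uninjected arrays, the 7 members other than Cryab stood at a median of 0.06 log2 on the first and 0.28 on the second PBS array, and at 0.31 on the first and 2.07 on the second ISOX DUAL array. The second PBS and the first ISOX DUAL array were thus nearly alike in this median.

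The second ISOX DUAL array exceeded the first for all 8 members, as for 49.4% of all genes, but by more than for most. The gap was 3.71 log2 for Cryaa (13.1-fold) and 3.60 for Cryba1 (12.1-fold), ranks 1 and 2 of the 23255 genes tested. Crybb1 ranked 4 (2.12 log2), Cryba2 6 (1.87), Cryba4 9 (1.41), Crybb2 12 (1.16) and Crybb3 15 (1.06). Over all genes this gap had an SD of 0.16 log2. Of the 17 genes with a gap above 1 log2 (0.0731% of all genes), 7 were members, 4 were gamma crystallins and 1 was Mip, the lens fibre water channel gene. The remaining 5, named after their values were seen, were Ogn, Cd24a, Slc15a2, Rsad2 and Rgr. Between the PBS arrays the gap was positive for all 8 members too, as for 61.6% of all genes. It was 1.04 log2 for Cryaa, rank 4, and 0.54 or less for the other 7.

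**Figure D2:**
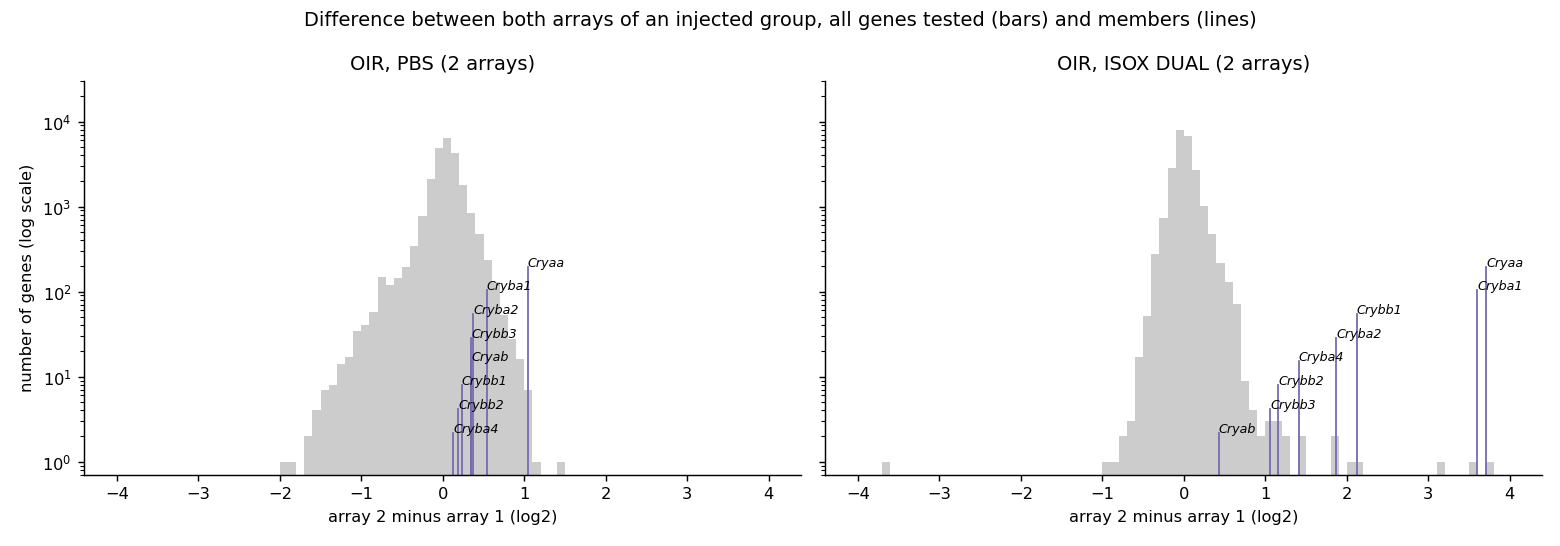
Number of genes (log scale) by the difference between array 2 and array 1 of the PBS group (left) and the ISOX DUAL group (right), in bins of 0.1 log2 over the 23255 genes tested, with a line at each member (line heights only separate the names). With ISOX DUAL, Cryaa at 3.71 and Cryba1 at 3.60 lie farthest to the right, while Cryab at 0.43, rank 382, lies in the upper tail of the bars.

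Group means followed from these values, and no member passed the limma threshold in any of the comparisons with an injected group. For ISOX DUAL against uninjected OIR, 0 of 8 passed (0.0043% of all genes) and 5 of 8 had an unadjusted p under 0.05 (4.29% of all genes). The median difference of the members was 1.12 log2, against 0.02 over all genes, and both ISOX DUAL arrays lay above both OIR arrays for 7 of 8 (25.7% of all genes). Cryba1 differed by 3.52 ± 0.96 (95% interval 1.29 to 5.76, adjusted p = 0.80), with its OIR level below the negative control medians, so the size is not exact and no fold is given. Cryaa differed by 3.21 ± 1.00 (9.23-fold, 95% interval 0.88 to 5.53, adjusted p = 0.952) and Crybb1 by 1.74 ± 0.55 (3.34-fold, adjusted p = 0.958). Cryab differed by -0.06 ± 0.27.

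For ISOX DUAL against PBS, where both groups had OIR and an injection, 0 of 8 passed (0.0% of all genes) and 3 of 8 had an unadjusted p under 0.05 (1.02% of all genes). All 8 differences were positive, with a median of 0.96 log2 against 0.01 over all genes, and the groups did not overlap for 3, Cryba1, Cryba4 and Crybb1 (16.6% of all genes). Cryba1 differed by 2.29 ± 0.96 (4.88-fold, 95% interval 0.05 to 4.52), Cryaa by 2.08 ± 1.00 (4.24-fold, -0.24 to 4.41) and Crybb1 by 1.43 ± 0.55 (2.70-fold, 0.15 to 2.72), all at an adjusted p of 1.0. Cryab differed by 0.24 ± 0.27 (-0.39 to 0.86).

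PBS alone went with a smaller difference from uninjected OIR. Of 8 members 0 passed (0.0% of all genes), 0 had an unadjusted p under 0.05 (4.29%), and the median was 0.21 log2 against 0.01 over all genes. Cryba1 (1.24 ± 0.96) and Cryaa (1.12 ± 1.00, 2.18-fold) led, and both PBS arrays lay above both OIR arrays for 5 of 8 members (20.9% of all genes). The SEs in this comparison hold the spread of the ISOX DUAL arrays, since all groups share 1 estimate. With only the 4 PBS and OIR arrays in the fit the SE was 0.21 for Cryba1 and 0.37 for Cryaa, at an adjusted p of 0.84 for each (0 of 8 members and 0.0% of all genes called). Against untreated day 17 retina, 0 of 8 members passed with PBS (0.0% of all genes) and 0 of 8 with ISOX DUAL (0.0172%). An unadjusted p under 0.05 was found for 0 members with PBS (9.14% of all genes) and 4 with ISOX DUAL (8.46%), and the injected arrays lay above both untreated arrays for 3 (19.7%) and 7 (20.6%). The difference of Cryaa from untreated day 17 was 1.02 log2 in the PBS group and 3.11 in the inhibitor group. These comparisons share groups and are not independent of each other.

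**Figure D3:**
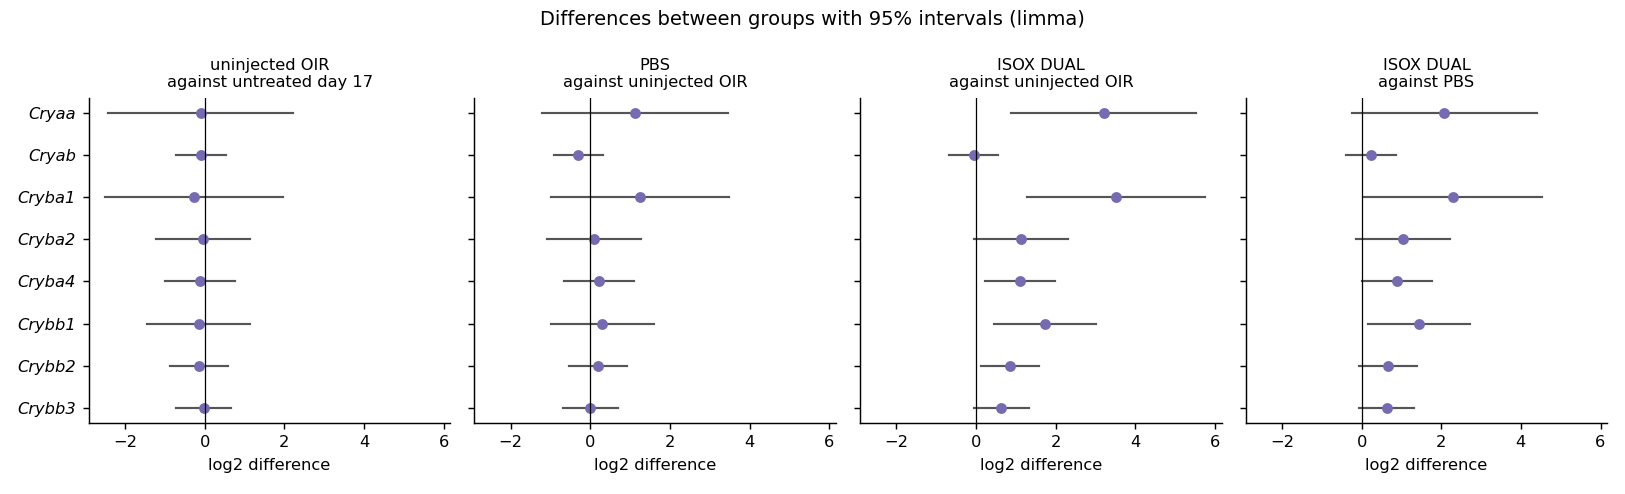
Difference in level between groups (log2, points) with its 95% interval from limma (lines) for each member in 4 comparisons. All groups share 1 estimate of spread, so the intervals hold that of the ISOX DUAL arrays in every panel. The 7 points other than Cryab lie at 0.64 to 3.52 for ISOX DUAL against uninjected OIR, while all 8 lie between -0.26 and -0.02 for OIR against untreated retina.

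The sizes of the inhibitor differences depended on 1 array. Without the second ISOX DUAL array, the median difference of the members was 0.33 log2 from uninjected OIR and 0.14 from PBS. Cryaa then differed from PBS by 0.23 and Cryba1 by 0.49, in place of 2.08 and 2.29. Without the first ISOX DUAL array, the medians were 1.94 and 1.78, and 4 members rose from uninjected OIR: Crybb1 (2.80, adjusted p = 0.0180), Cryba1 (5.32, adjusted p = 0.0341), Cryaa (5.06, adjusted p = 0.0499) and Cryba4 (1.81, adjusted p = 0.0499). They were 4 of 7 genes that limma called in that fit (0.0301% of all genes). Crybb1 was also the 1 gene called against PBS (2.50, adjusted p = 0.0387, 0.0043% of all genes). Against untreated day 17 retina, Cryba1 (5.06, adjusted p = 0.0286) and Crybb1 (2.65, adjusted p = 0.0215) rose in that fit (2 of 8 members, 0.0258% of all genes). These fits assume that the lone inhibitor array varies like the arrays of the other groups.

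**Figure D4:**
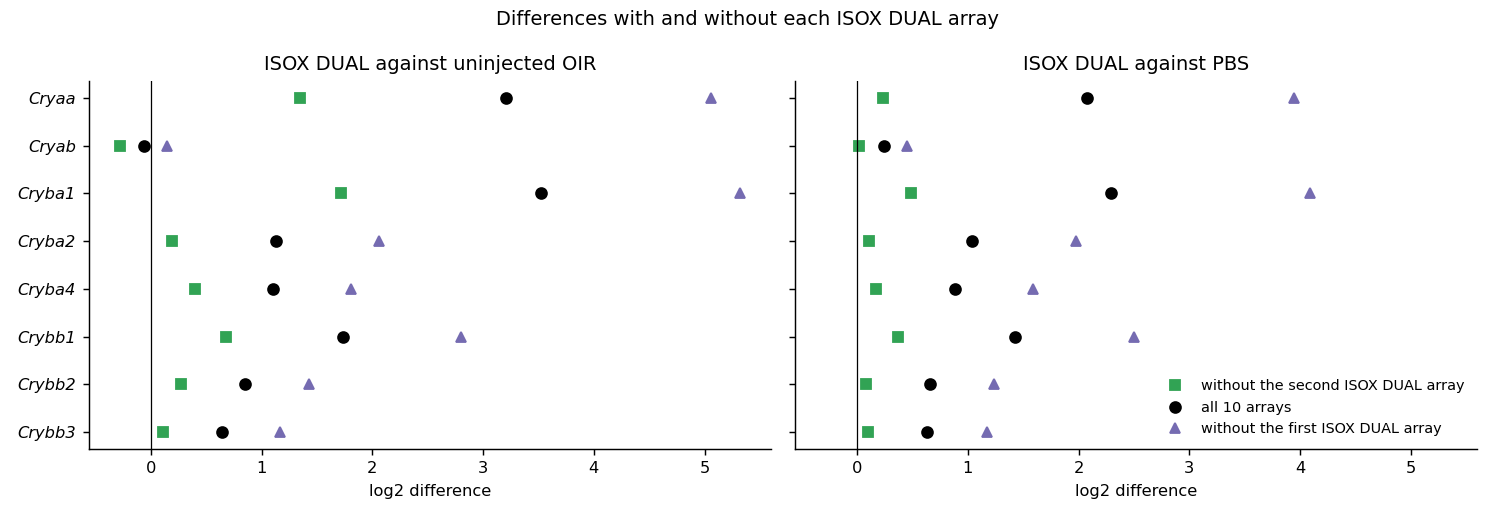
Difference of ISOX DUAL from uninjected OIR (left) and from PBS (right) for each member (log2), with all 10 arrays (circles), without the second ISOX DUAL array (squares) and without the first (triangles). For Cryba1 against PBS the difference is 0.49, 2.29 or 4.09.

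Other lens genes shared the highest array. All 8 gamma crystallin genes, which encode the densely packed proteins of the lens core, were highest on the second ISOX DUAL array, and 7 of them had both ISOX DUAL arrays above the other 8. None passed in any of the 7 comparisons by limma. For ISOX DUAL against uninjected OIR their median difference was 1.35 log2 and 8 of 8 were positive. In that comparison 7 of 8 had an unadjusted limma p under 0.05 (4.29% of all genes). Cryge had the smallest p (0.81 ± 0.14, adjusted p = 0.291), followed by Crygb (2.67 ± 0.45, adjusted p = 0.296). Of 10 defining lens fibre genes that encode no crystallin, 9 are in the table and 8 were tested. Of these, 7 were highest on the second ISOX DUAL array (3.84% of all genes). Only Grifin (1 of 8) had both ISOX DUAL arrays above the other 8 (1.51%). The first ISOX DUAL array lay above all uninjected ones for 2 (9.26%). The second PBS array did so for 4, Mip, Lim2, Gja3 and Lgsn (8.81%), and the first PBS array for 1, Lgsn (10.9%). In 0 of 8 did all 4 injected arrays lie above the uninjected ones (1.87%). Against uninjected OIR, 8 of 8 were positive with a median of 0.23, and both ISOX DUAL arrays lay above both OIR arrays for 8 of 8 (25.7% of all genes). In that comparison 0 of these genes passed the limma test (2 had an unadjusted p under 0.05, as did 4.29% of all genes). Their mean level over 9 genes was 5.53 to 5.76 log2 on the uninjected arrays, 5.63 and 5.76 with PBS, and 5.74 and 6.08 with ISOX DUAL. On 8 arrays 2 of the 9 lay above the negative control median, on the second untreated day 17 array 3 and on the second ISOX DUAL array 4. Mip was at 6.15 and 6.37 with PBS and at 6.36 and 7.59 with ISOX DUAL, against 6.22 at most without an injection. Lim2 (5.76 and 5.96 with ISOX DUAL) stayed below the negative control medians there. The part of lens tissue in the crystallin differences was not tested.

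Set against the uninjected arrays of both days, markers of other eye tissues had list means inside the uninjected ranges on the ISOX DUAL arrays. Genes of ciliary body, iris and vitreous were the exception. The mean level of 10 retinal pigment epithelium genes was 5.75 and 6.12 log2 with ISOX DUAL, 5.99 and 6.12 with PBS and 5.66 to 6.70 without an injection. On the uninjected day 17 arrays alone it was 5.82 to 6.70, so the first ISOX DUAL array lay below all of these. Against untreated day 17, 0 of 9 tested genes were positive with ISOX DUAL (median -0.64), with PBS (-0.27) or in uninjected OIR (-0.31). With ISOX DUAL 4 of the 9 had an unadjusted limma p under 0.05 (8.46% of all genes) and 0 passed. Between the ISOX DUAL arrays, 8 of the 9 tested pigment epithelium genes were higher on the second, as the crystallins were. The gap was 0.95 log2 for Rpe65 (rank 18 of all genes), which encodes the isomerase of the visual cycle, 0.75 for Ttr (rank 24) and 0.52 for Lrat (rank 200). Rpe65 was at 5.46 and 6.41 there, against 4.44 to 7.71 without an injection, so it stayed inside its uninjected range. The mean of 5 cornea genes was 5.07 and 5.04 with ISOX DUAL, and that of 7 extraocular muscle genes 5.59 and 5.58, inside their uninjected ranges of 5.00 to 5.16 and 5.50 to 5.71. Lens transcription factor genes, several of which retinal neurons and glia also express, had a mean of 7.02 and 7.07 with ISOX DUAL and 6.99 to 7.28 without an injection. Of 9 tested, 0 passed the limma test against uninjected OIR or PBS, and 0 had an unadjusted p under 0.05 in either. Maf, which encodes a large Maf protein of the lens, was at 6.85 and 7.22 with ISOX DUAL, 6.83 and 6.94 with PBS, 7.43 and 6.80 in uninjected OIR, 7.62 and 7.01 in untreated day 17 and 8.05 and 7.42 in untreated day 7 retina. Its level on the second ISOX DUAL array lay inside its uninjected range, and the part of Maf in the crystallin differences was not tested.

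Markers of retinal ganglion cells, the output neurons of the retina, went the other way between the ISOX DUAL arrays and the same way between the PBS arrays. Their mean over 8 genes was 7.64 and 7.18 log2 with ISOX DUAL, 7.40 and 8.16 with PBS and 7.66 to 8.63 without an injection, so it was lowest on the array with the most crystallin signal and higher on the second PBS array than on the first. Between the PBS arrays Sncg, a ganglion cell gene, had the largest gap of all genes (1.46 log2). Against uninjected OIR, 8 of 8 differences were negative with a median of -0.96, 6 had an unadjusted limma p under 0.05 (4.29% of all genes) and 0 passed. Genes of ciliary body, iris and vitreous had a mean of 6.95 and 7.06 with ISOX DUAL and 7.07 to 7.30 without an injection. Against uninjected OIR 0 of 7 were called and 2 had an unadjusted limma p under 0.05 (4.29% of all genes). Optc, the vitreous opticin gene, was at 6.97 and 7.63 with ISOX DUAL, 8.17 and 8.63 with PBS and 8.64 and 8.26 in uninjected OIR. Both ISOX DUAL values of Optc thus lay below its PBS and uninjected OIR values. Its gap between the ISOX DUAL arrays was 0.66 log2 (rank 50), against a median of 0.01 over the 7 genes of this list. Genes of Müller glia, where Cryab is known to be made, had a mean of 8.80 and 8.87 with ISOX DUAL, 8.68 and 8.86 with PBS and 8.34 to 8.96 without an injection. Astrocyte and reactive glia genes had a mean of 7.51 and 7.74 with ISOX DUAL, 7.13 and 7.22 with PBS and 8.00 and 7.72 in uninjected OIR. Against PBS their median difference was 0.36 log2, and both ISOX DUAL arrays lay above both PBS arrays for 6 of 9 (16.6% of all genes). Of the 9, 3 had an unadjusted limma p under 0.05 (1.02% of all genes) and 0 passed. Gfap was highest of the 10 arrays on the second ISOX DUAL array (8.67, against 8.65 at most without an injection), and the gap of Serpina3n between the ISOX DUAL arrays was 0.92 log2 (rank 19). The part of these cell types in the crystallin differences was not tested.

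Cryab followed other genes. Over the 10 arrays the 8 genes most like the mean of all 8 members, out of 16150 searched, were Mip (Pearson r = 0.996, Spearman rank correlation 0.891), Crygs, Crygc, Crygf, Glycam1, Cryga, Steap4 and Crygd (r of 0.918 to 0.994 for these 7). The likeness is set largely by 1 array: without the second ISOX DUAL array, r was 0.947 for Mip, 0.718 for Glycam1 and 0.508 for Steap4. The other 7 members had r of 0.973 to 0.991 with that mean, of which each is a part, and Cryab had 0.285. The 5 genes most like Cryab were S100a1, Ctsh, Isca1, Cd9 and Cebpzos (r of 0.922 to 0.942 over 10 arrays, and 0.917 to 0.974 without the second ISOX DUAL array).

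Among the 8 other genes with an Hspb symbol, Hspb6, which encodes a chaperone partner of the alpha crystallins, had r = 0.909 with Cryab. It was at 8.23 and 7.44 at day 7, 9.16 and 8.75 at day 17, 9.17 and 8.46 in uninjected OIR, 8.12 and 8.33 with PBS and 8.30 and 8.45 with ISOX DUAL. In both genes the first array exceeded the second in all 3 uninjected groups and the second exceeded the first in both injected groups. This order is not particular to them: over all genes tested, which are not independent replicates, Pearson's r of the gaps between arrays 1 and 2 was 0.583 to 0.809 for pairs of uninjected groups and 0.399 for PBS with ISOX DUAL. The part of this array pattern in the Cryab values was not tested. Hspb2, a small heat shock protein gene whose RefSeq span overlaps that of Cryab, lay between 6.22 and 6.52 on all 10 arrays. Of the 8 genes, which were listed by symbol and not by protein family, 1 passed the limma test in any comparison. It was Hspb11 from day 7 to day 17 (0.47 ± 0.12, adjusted p = 0.0420), and the day 17 difference of Hspb6 was 1.12 ± 0.31 (adjusted p = 0.0582).

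Inducible chaperone genes, listed here together with the heat shock transcription factor gene Hsf2, belong to the wider protein-folding response. Of 11 tested, 0 passed the limma test for ISOX DUAL against PBS (median 0.05 log2, 0 at an unadjusted p under 0.05) or against uninjected OIR (-0.06, 1 at an unadjusted p under 0.05). Bag3, encoding a co-chaperone that works with small heat shock proteins, rose in OIR against untreated retina (0.86 ± 0.12, adjusted p = 0.0318), the single gene of the list to do so. From day 7 to day 17 Hspa1a rose (1.18 ± 0.14, adjusted p = 0.00220) and Hsf2 fell (-0.50 ± 0.09, adjusted p = 0.0109). Of 7 genes that carry a crystallin name without being lens crystallins of the mouse (Crybg1, Crybg2, Crybg3, Crym, Cryz, Cryzl1 and Cryl1), 0 passed the limma test in any comparison with an injected group (1 had an unadjusted p under 0.05, Crym for ISOX DUAL against untreated day 17). Crym, encoding a thyroid hormone binding protein, fell from day 7 to day 17 (-1.37 ± 0.32, adjusted p = 0.0341).

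**Figure D5:**
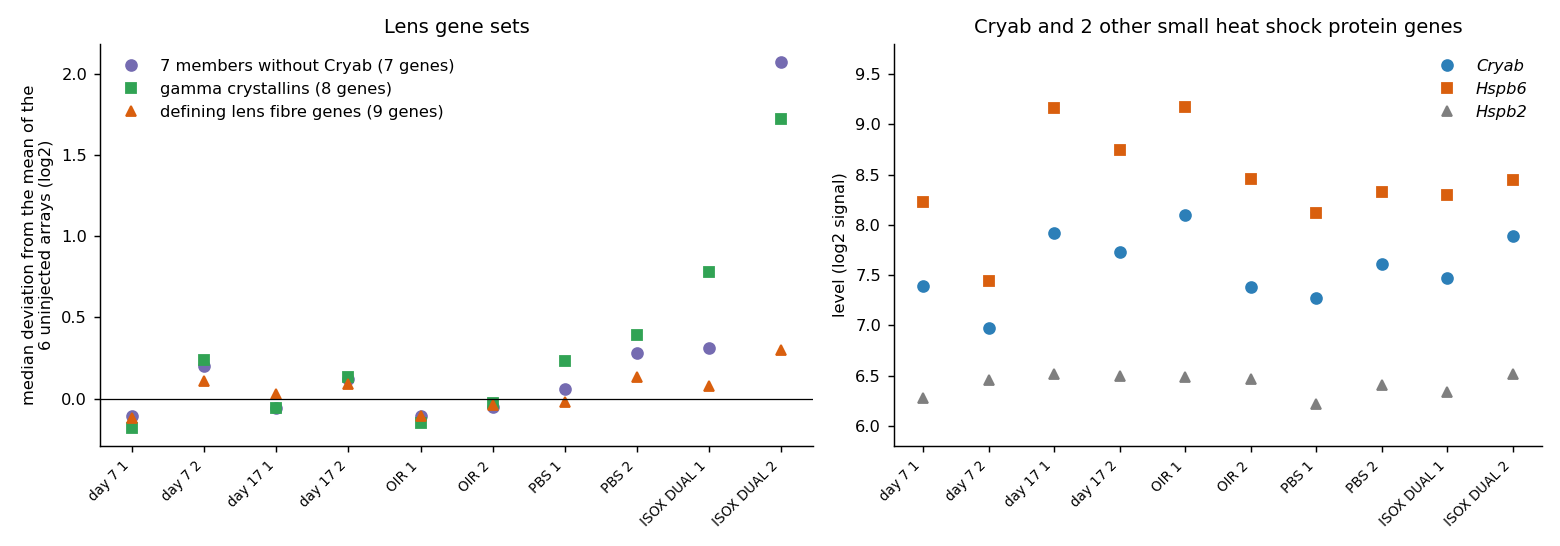
Left, the median over 3 lens gene sets of each gene's deviation from its mean on the 6 uninjected arrays (log2), by array; right, levels (log2 signal) of Cryab, Hspb6 and Hspb2 by array. The 7 members without Cryab reach 2.07 and the gamma crystallins 1.72 on the second ISOX DUAL array, while Cryab and Hspb6 are highest on the first uninjected OIR array.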

How the data were processed

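The authors deposited 1 table of log2 values per transcript cluster for 10 arrays. That the scale is log2 was read from the values (0.78 to 13.67). Per the labels' protocols, Trizol-extracted RNA was labelled with biotin by the WT Terminal Labeling Kit. Software, normalization and build were not given in the sources used here. No further normalization was applied.

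After 6732 control rows were set aside, 65956 clusters remained, 30604 with 1 symbol, 2146 with several and 33206 with none here. Symbols were updated through RefSeq genes of GRCm38.p6. A gene's highest-mean cluster represented it. Genes above their array's 30th percentile on at least 2 arrays were tested (23255), and the 8 members passed on all 10 arrays. limma 3.58.1 in R 4.3.3 (lmFit, eBayes) was fitted over all 10 arrays with 5 residual and 2.76 prior degrees of freedom. No fold is given where the lower group lay below the negative control median on both arrays.

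The members, lists, motif and tests were chosen with earlier results of these data known. Named were all members, Hspb2, Mip and other lens and retina markers, list members of smallest p, and the genes most like the members or Cryab. Alternatives were quantile normalization, other filters, an intensity trend, array weights, fits of both groups only, a block, mean clusters and leaving out each array. The fit was tested on simulated data. Array number limits the precision.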

Additional observations from a re-analysis of the deposited data

How the results depend on the processing

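Of the 8 members, the number past the limma threshold was 0 in every comparison under quantile normalization, no filter, a filter at the 50th percentile, an intensity trend with robust estimation, array weights, mean clusters and fits of both groups only. Over these settings and the block, 0.0% to 0.0129% of all genes passed for ISOX DUAL against uninjected OIR and 0.0% against PBS. At most 0.0344% passed for ISOX DUAL against untreated day 17. For PBS the highest share was 0.0215% against uninjected OIR and 0.0086% against untreated day 17. It was 0.61% for uninjected OIR against untreated day 17, while between the days at least 1.48% passed. A count of 0 members therefore says less where hardly any gene passed. With the replicate number as a block, the number of members past the threshold was also 0 in all 7 comparisons. With no member called in the main fit, no call could be lost. The block is 1 term for all groups, so it cannot take up array gaps that tended to run opposite ways in uninjected and injected groups. Arrays of equal number correlated among uninjected and among injected groups but at -0.0567 to -0.406 between them, so the numbers were not taken to pair the arrays over all groups; whether they do within either set is not settled by the labels.

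Leaving out 1 array in turn gave 0 to 4 members past the threshold for ISOX DUAL against uninjected OIR, 0 to 1 against PBS and 0 to 2 against untreated day 17, each highest without the first ISOX DUAL array. The median of the members ranged from 0.33 to 1.94 log2, 0.14 to 1.78 and 0.22 to 1.86 in these. It was 0.13 to 0.29 for PBS against uninjected OIR, -0.01 to 0.20 for PBS and -0.18 to -0.04 for uninjected OIR against untreated day 17, and -0.15 to 0.17 between the days.

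None of the 56 differences of single members passed in the main fit. No call could therefore be lost, and any sign that turned belonged to a difference past no threshold. With quantile normalization the sign turned for Cryba2 in OIR (0.00) and for Crybb3 with PBS against uninjected OIR (-0.01). Leaving out arrays gave, between the days, Cryaa -0.34 to 0.29, Cryba1 -0.50 to 0.31, Cryba2 -0.12 to 0.30, Cryba4 -0.18 to 0.14, Crybb2 -0.01 to 0.13 and Crybb3 -0.01 to 0.08. In OIR against untreated it gave Cryaa -0.41 to 0.22, Cryab -0.44 to 0.27, Cryba1 -0.67 to 0.14, Cryba2 -0.17 to 0.08 and Crybb3 -0.09 to 0.05. For PBS against uninjected OIR it gave Cryab -0.66 to 0.06, Cryba2 -0.10 to 0.27 and Crybb3 -0.17 to 0.18, and against untreated day 17 Cryba2 -0.14 to 0.23, Crybb2 -0.05 to 0.14 and Crybb3 -0.19 to 0.16. For ISOX DUAL, Cryab was at -0.42 to 0.30 against uninjected OIR and -0.36 to 0.07 against untreated day 17.

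Signal near the negative control probes limits the precision for Cryba1, Cryba2, Cryba4 and Crybb2 in uninjected retina. The other members are not clear of these probes either, since 0 of 8 exceeded their 95th percentile on any uninjected array. Crybb3 lay above 58.2% to 65.0% of them there and Cryaa above 65.0% to 80.9%, so folds given for members are not exact.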
